A study of Homo sapiens with 9 samples.

Results

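Versican and 9 other proteoglycan genes were followed across 9 single-color microarrays of 3 T47D lines. The members were chosen by name, as every probe whose gene name in the array files is VCAN, ACAN, BGN, SDC1, SDC2, SDC4, GPC1, GPC4, HSPG2 or AGRN, which gave 15 of the 58201 probes on the array and 10 of 43395 genes. That choice was made with earlier results of these data known, so shares called among the members are descriptions and not independent evidence. T47D is an established luminal breast cancer cell line, and all lines carried a stably integrated vector selected with G418. T47D-VC1 held the empty vector, T47D-PA6 expressed full-length PTH-AS, a long noncoding RNA transcribed downstream of the parathyroid hormone gene, and T47D-PA5 expressed an incomplete PTH-AS that lacks part of its 5′ side. Each group is 1 selected line with 3 arrays, so what a line carries and what its selection left behind cannot be told apart. The labels do not say whether the arrays of a line came from separate cultures, so p-values measure the spread between these arrays, which may be technical. The comparison of T47D-PA6 with T47D-VC1 asks what goes with full-length PTH-AS, and T47D-PA5 stands beside it as the incomplete form. The paper used T47D-PA5 as a negative control and counted changes shared by T47D-PA5 and T47D-PA6 as nonspecific. Both are called PTH-AS lines below for short.

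Proteoglycans are core proteins that carry long sulfated sugar chains, either chondroitin and dermatan sulfate or heparan sulfate. Versican and aggrecan bind hyaluronan and swell the space around cells, perlecan and agrin are built into basement membranes, and syndecans and glypicans hold heparan sulfate at the cell surface, where it binds growth factors. In breast tumors versican is best known as a product of the stroma, while luminal epithelial cells are known for syndecan-1 and syndecan-4.

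Of the 10 genes, 8 were tested, because they had a probe that the image software marked as well above background on all 3 arrays of 1 or more lines. Signals are processed spot intensities that were quantile-normalized between arrays, line means are geometric means with the standard deviation (SD) on the log2 scale, and signals of different probes cannot be set against each other. In T47D-PA6 against T47D-VC1, VCAN fell and HSPG2 and AGRN rose, so that 3 of the 8 tested members passed limma at an adjusted p-value under 0.05, where 10.03% of all 20106 tested genes did (4.69% higher and 5.34% lower). In T47D-PA5 against T47D-VC1, 0 of the 8 passed limma, against 1.67% of all genes, with 1 of the 8 (AGRN) at an unadjusted p-value under 0.05, where 15.6% of all genes were, and 0 by the unpaired test that the methods name, against 0.194% of all genes. In T47D-PA6 against T47D-PA5, 2 of the 8 passed (VCAN lower, HSPG2 higher), against 9.71% of all genes (3.65% higher and 6.06% lower). The median log2 difference of the 8 members was 0.17 in T47D-PA6 over T47D-VC1, where that of all genes was -0.03. It was 0.12 against -0.03 in T47D-PA5 over T47D-VC1 and 0.01 against -0.00092 in T47D-PA6 over T47D-PA5. The first 2 comparisons share the T47D-VC1 arrays. With 3 arrays against 3, an exact two-sided permutation test cannot go below p = 0.1, so smaller p-values rest on the model of the test. In limma the spread of a gene's own arrays (6 residual degrees of freedom) is drawn toward that of all genes (2.48 prior degrees of freedom).

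**Figure D1:**
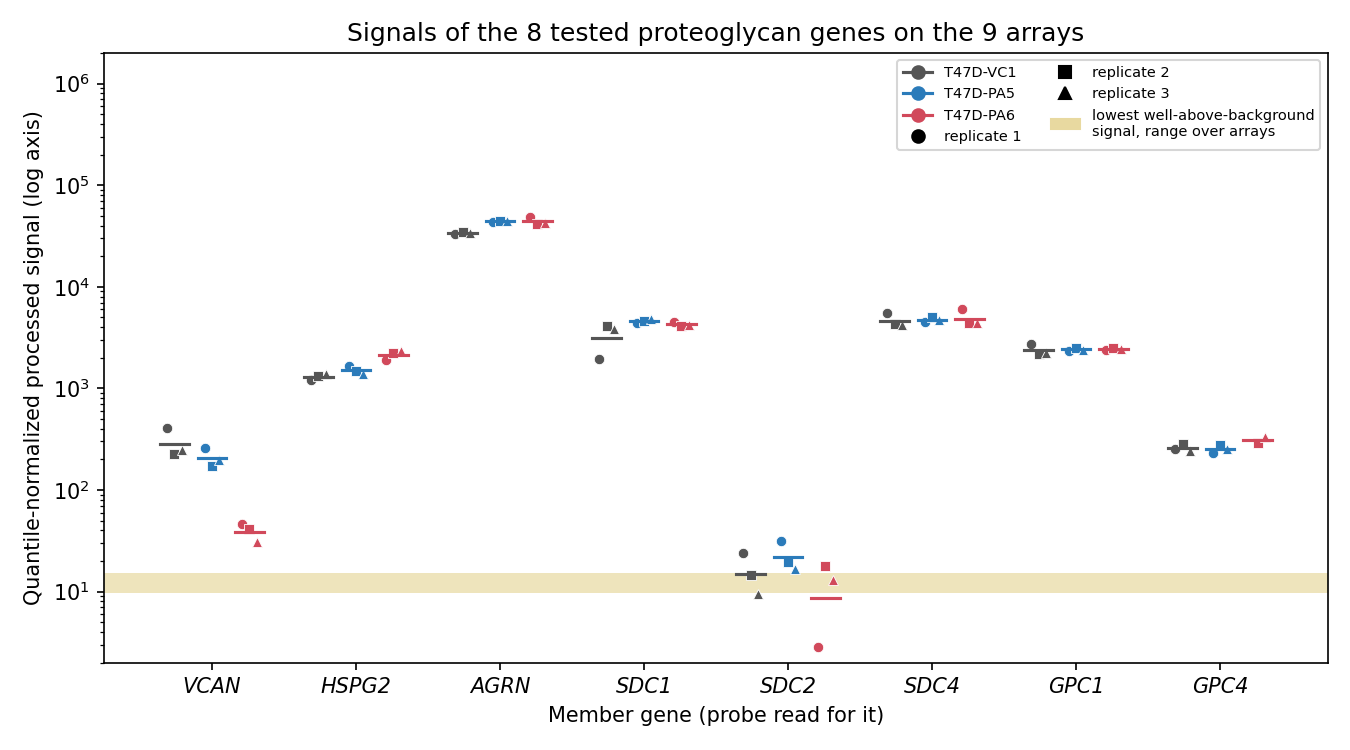
Quantile-normalized processed signal (vertical log axis) of the probe read for each of the 8 tested members (horizontal axis) on every array. Points are arrays, colored by line and shaped by replicate, bars are geometric means, and the tan band is the range over arrays of the lowest signal well above background (9.59 to 15.2). The T47D-PA6 points of VCAN (30.9 to 46.6) lie below all other arrays of that gene, and SDC2 is the member that reaches the band.

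Versican, the large chondroitin sulfate proteoglycan of loose matrix, was lower in T47D-PA6 than in both other lines, by the largest fold among the tested members. Its only probe by gene name covers chromosome 5, 82876302 to 82876361 on the plus strand (hg19), and starts at base 10595 of the transcript. The VCAN values thus have no second probe beside them. The VCAN signal was 407, 225 and 248 in T47D-VC1, replicates 1 to 3. It was 261, 173 and 195 in T47D-PA5, and 46.6, 41.0 and 30.9 in T47D-PA6. All T47D-PA6 arrays were below all others, while the T47D-VC1 and T47D-PA5 arrays overlapped. All 9 arrays were well above background, so the low level was still measured. Line means were 283 (SD 0.46 on the log2 scale, n = 3), 207 (SD 0.30, n = 3) and 38.9 (SD 0.30, n = 3). VCAN was thus 7.27-fold lower in T47D-PA6 than in T47D-VC1, a log2 difference of -2.86 (SE 0.26, 95% confidence interval -3.46 to -2.27, limma adjusted p = 0.000725), which was rank 14 among the falls of the 20106 genes. Against T47D-PA5 the log2 difference was -2.41 (SE 0.26, limma adjusted p = 0.00233). Between T47D-PA5 and T47D-VC1 it was -0.45, with an interval of -1.05 to 0.14 (limma adjusted p = 0.468), so a difference of that size could not be told from none with these arrays. In arrays of bulk RNA, fewer cells with a transcript and less transcript per cell cannot be told apart.

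The fall of VCAN was present in both scan runs, the earlier one with replicate 1 of each line and the later one with replicates 2 and 3. The log2 difference between T47D-PA6 and T47D-VC1 was -3.13 in the earlier run and -2.73 in the later one. In all 22 alternative settings with a test VCAN passed the threshold against both other lines, with limma adjusted p-values or those of the unpaired test of at most 0.0461 and 0.0345. The size did depend on the background correction: with normexp and an offset of 50, which raises dim signals, the log2 difference was -1.67 against T47D-VC1 and -1.33 against T47D-PA5. VCAN is also in a list that the study chose on these samples, which is not independent evidence of its direction.

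The 250 bases before the VCAN start in RefSeq are shown because VCAN moved most among the members. They lie at chr5:83471494-83471743 on the plus strand of GRCh38.p14, and capitals mark a GC box (GGGCGG, searched on both strands, here on the opposite strand) that begins 170 bases before the start.
VCAN: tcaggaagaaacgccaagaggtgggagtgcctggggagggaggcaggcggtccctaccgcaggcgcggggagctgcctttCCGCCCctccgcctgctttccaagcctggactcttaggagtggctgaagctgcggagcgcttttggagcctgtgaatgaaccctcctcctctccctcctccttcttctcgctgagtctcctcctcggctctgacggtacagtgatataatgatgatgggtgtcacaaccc
Promoters of 8 of the 10 members were in the RefSeq table. A GC box was present in the same window of all 8, with 1 match in VCAN and SDC1 and 8 in HSPG2 and SDC4, against 42.3% of 27303 promoters. A TATA box (TATAAA) and a gamma-activated site (TTCNNNGAA), each searched on both strands, had 0 matches in all 8, against 11.1% and 6.78% of all promoters. Their GC content was 60.8% in VCAN, the lowest of the 8, and up to 84.0% in GPC1, with a median of 58.0% over all promoters. These matches describe letters in the window and nothing more.

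Aggrecan, the hyaluronan-binding proteoglycan of cartilage, had 2 probes 7719 bases apart on its transcript (chromosome 15, 89346980 to 89347039 and 89417771 to 89417830, plus strand, hg19). Neither ACAN probe was well above background on any array, and their signals lay between 2.69 and 11.6. Biglycan, a small leucine-rich proteoglycan of connective tissue, had 1 probe (chromosome X, 152773933 to 152773992, plus strand, hg19), with signals of 3.12 to 8.24 that no array marked as well above background. Neither gene was tested, and no fold is given for them.

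Perlecan, the large heparan sulfate proteoglycan of basement membranes, was higher in T47D-PA6 than in both other lines. The HSPG2 signal was 1223, 1312 and 1384 in T47D-VC1, replicates 1 to 3. It was 1646, 1490 and 1384 in T47D-PA5, and 1881, 2228 and 2315 in T47D-PA6. The T47D-PA6 arrays lay above all others, and the lowest T47D-PA5 array, at 1383.95, lay barely above the highest T47D-VC1 array, at 1383.67. The line means were 1304 (SD 0.09), 1503 (SD 0.13) and 2133 (SD 0.16), each with n = 3. HSPG2 rose 1.64-fold over T47D-VC1, a log2 difference of 0.71 (SE 0.12, limma adjusted p = 0.00951), and passed in 21 of the 22 alternative settings, the exception being the unpaired test (adjusted p = 0.0690). The log2 difference was 0.62 in the earlier scan run and 0.75 in the later one.

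Against T47D-PA5 the HSPG2 log2 difference was 0.51 (SE 0.12, limma adjusted p = 0.0323). That call was less secure, since 11 of the 22 settings lost it, among them the slide as a block (adjusted p = 0.0649) and leaving out T47D-VC1 replicate 2 or 3, T47D-PA5 replicate 2 or 3, or T47D-PA6 replicate 2 or 3 (adjusted p = 0.0542 to 0.126). Within scan runs it was 0.19 in the earlier and 0.66 in the later. Between T47D-PA5 and T47D-VC1 the log2 difference was 0.20, with an interval of -0.06 to 0.47 (limma adjusted p = 0.469).

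HSPG2 was read at 4 places on its transcript, and only the probe nearest the 3′ end gave a signal well above background on all arrays. That probe starts at base 14268 (chromosome 1, 22148740 to 22148799, minus strand, hg19). The other 3 probes begin 13188, 6001 and 3829 bases nearer the 5′ end and are printed 5′ to 3′ in lower case, since the perlecan result rests on the probe they do not share. They cover 22213726 to 22213785, 22173013 to 22173072 and 22162070 to 22162129 of the same chromosome and strand.
HSPG2 probe at base 1080: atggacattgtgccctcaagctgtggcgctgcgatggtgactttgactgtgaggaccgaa
HSPG2 probe at base 8267: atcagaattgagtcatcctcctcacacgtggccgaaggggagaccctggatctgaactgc
HSPG2 probe at base 10439: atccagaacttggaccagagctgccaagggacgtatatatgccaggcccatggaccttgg
The probe at base 1080 was well above background on 2 arrays, T47D-PA5 replicate 1 at 17.9 and T47D-PA6 replicate 2 at 13.5. The probes at bases 8267 and 10439 were never well above background, with signals of 2.99 to 10.2 and 2.72 to 9.22. The 3′ probe holds the letters AATAAA, the usual signal for transcript ending, and the 3 inner probes do not. None of the 3 inner probes was tested, so the rise of HSPG2 has no second probe beside it, and whether distance from the 3′ end goes with the low signals was not tested.

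**Figure D2:**
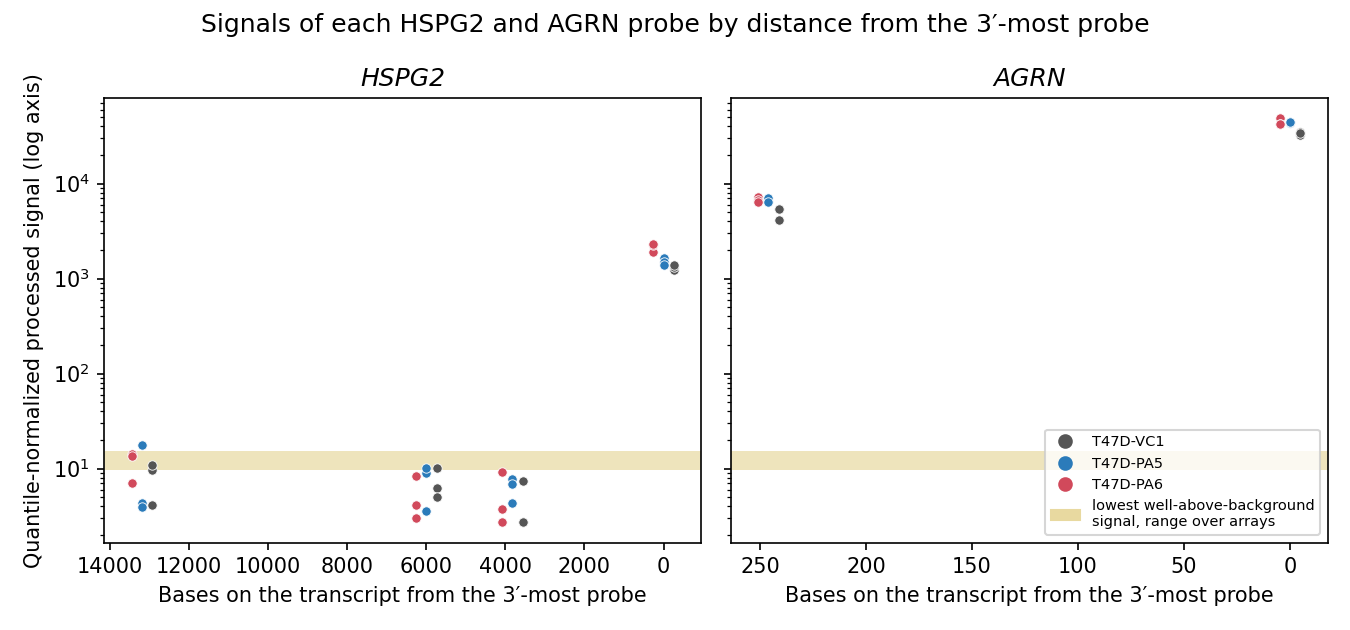
Quantile-normalized processed signal (vertical log axis) of each HSPG2 probe (left) and each AGRN probe (right) against its distance in bases on the transcript from the 3′-most probe of the gene (horizontal axis, 3′ end to the right). Points are single arrays colored by line, with lines set slightly apart, and the tan band is the range of the lowest signal well above background. The 3 inner HSPG2 probes lie below, in or just above the band, at 2.72 to 17.9, and both AGRN probes lie far above it.

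The 250 bases before the HSPG2 start are shown beside those of VCAN because the 2 genes moved in opposite directions. They lie at chr1:21937311-21937560 on the minus strand of GRCh38.p14 in RefSeq. Capitals mark the 8 GC boxes, some of which overlap.
HSPG2: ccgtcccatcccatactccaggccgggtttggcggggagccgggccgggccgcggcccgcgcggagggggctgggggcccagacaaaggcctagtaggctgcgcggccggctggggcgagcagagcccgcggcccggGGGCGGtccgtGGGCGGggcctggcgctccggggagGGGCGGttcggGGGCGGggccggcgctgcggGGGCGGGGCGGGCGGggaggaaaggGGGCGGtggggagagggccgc
The window was 82.8% G and C with 33 CpG pairs, where the VCAN window had 12 and the median promoter had 11.

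Agrin, the heparan sulfate proteoglycan that gathers receptors at the nerve-muscle junction and is also laid down in epithelial basement membranes, was higher in both PTH-AS lines than in T47D-VC1 on every array. Its brighter probe, read for the gene, starts at base 7258 (chromosome 1, 991432 to 991491, plus strand, hg19). The AGRN signal was 32721, 34850 and 34107 in T47D-VC1, replicates 1 to 3. It was 43312, 43915 and 44864 in T47D-PA5, and 48654, 41951 and 42618 in T47D-PA6. The T47D-VC1 arrays were lowest without overlap, and the arrays of the other two lines overlapped. The log2 difference was 0.39 in T47D-PA6 over T47D-VC1 (SE 0.09, limma adjusted p = 0.0370) and 0.38 in T47D-PA5 over T47D-VC1 (SE 0.09, limma adjusted p = 0.0946). Between the PTH-AS lines it was 0.01, with an interval of -0.20 to 0.22.

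The second AGRN probe starts 246 bases upstream of the first (991186 to 991245 on the same strand). Its signals were 4115, 5384 and 5446 in T47D-VC1, 6503, 6960 and 6416 in T47D-PA5, and 7149, 6700 and 6378 in T47D-PA6. Again T47D-VC1 lay below both other lines without overlap. In a test over probes its log2 difference in T47D-PA6 over T47D-VC1 was 0.45 (limma adjusted p = 0.0611), where the brighter probe had an adjusted p of 0.0384. The AGRN call against T47D-VC1 was lost in 9 of the 22 settings, among them leaving out any T47D-VC1 array, T47D-PA5 replicate 2 or 3, or T47D-PA6 replicate 2 or 3 (adjusted p = 0.0536 to 0.116). For T47D-PA5 over T47D-VC1 it was gained in 3, namely without T47D-PA6 replicate 1 (adjusted p = 0.0479), with an intensity trend in the prior variance (0.0358) and in the later scan run alone (0.0149).

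Of the 3 syndecans among the members, which span the membrane, 0 passed limma in any comparison, and 0 had an unadjusted p under 0.05 or passed the unpaired test. Of all genes, 10.03%, 1.67% and 9.71% passed limma in T47D-PA6 over T47D-VC1, T47D-PA5 over T47D-VC1 and T47D-PA6 over T47D-PA5. In the same order 26.6%, 15.6% and 24.9% had such an unadjusted p, and 2.15%, 0.194% and 3.93% passed the unpaired test. A count of 0 among so few genes is near these shares. Syndecan-1, the chief syndecan of epithelia, had SDC1 signals of 1951, 4156 and 3858 in T47D-VC1, replicates 1 to 3. They were 4417, 4607 and 4838 in T47D-PA5, and 4512, 4132 and 4237 in T47D-PA6. Replicate 1 of T47D-VC1 stood apart from the other 8 arrays. The log2 difference was 0.45 in T47D-PA6 over T47D-VC1 (interval -0.13 to 1.02, limma adjusted p = 0.308) and 0.55 in T47D-PA5 over T47D-VC1 (interval -0.03 to 1.13, limma adjusted p = 0.347). Without that array the log2 differences were 0.10 (adjusted p = 0.528) and 0.21 (adjusted p = 0.298). The probe covers chromosome 2, 20401335 to 20401394, minus strand (hg19).

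Syndecan-4, found at focal adhesions, had SDC4 signals of 5497, 4311 and 4176 in T47D-VC1. They were 4480, 5064 and 4693 in T47D-PA5, and 6014, 4374 and 4351 in T47D-PA6. The 3 lines overlapped, and replicate 1 was the highest of its line in T47D-VC1 and in T47D-PA6. The log2 difference was 0.07 in T47D-PA6 over T47D-VC1, with an interval of -0.30 to 0.44 (limma adjusted p = 0.830). The probe covers chromosome 20, 43954578 to 43954637, minus strand (hg19).

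Syndecan-2, the mesenchymal member, was at the edge of detection. The SDC2 signal was well above background on all 3 T47D-PA5 arrays, at 31.2, 19.6 and 16.8, and this line alone carried it past the filter. It was 24.1, 14.6 and 9.56 in T47D-VC1, with 1 array well above background, and 2.85, 17.9 and 12.98 in T47D-PA6, with 2. The lines overlapped throughout, and the earlier and later scan runs disagreed in direction for T47D-PA6 over T47D-VC1 (log2 differences of -3.08 and 0.37). The fitted difference of -0.78 had an interval of -2.27 to 0.71, so no difference of moderate size could be detected for SDC2.

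Of the 2 glypicans among the members, held to the membrane by a lipid anchor, likewise 0 passed the threshold in any comparison, and 0 by an unadjusted p or the unpaired test. The shares of all genes are those given for the syndecans (10.03%, 1.67% and 9.71% by limma), and 0 is near them for so few genes. GPC6, a glypican outside the members that is described below, was lower in T47D-PA6 than in T47D-VC1 (limma adjusted p = 0.0327) and T47D-PA5 (limma adjusted p = 0.00833). Glypican-1, a co-receptor for growth factors, had GPC1 signals of 2736, 2185 and 2225 in T47D-VC1. They were 2359, 2505 and 2394 in T47D-PA5, and 2412, 2474 and 2428 in T47D-PA6, within the T47D-VC1 range. The GPC1 log2 difference in T47D-PA6 over T47D-VC1 was 0.04, with an interval of -0.20 to 0.29 (limma adjusted p = 0.850), the narrowest bound among the members that did not pass. The probe covers chromosome 2, 241407118 to 241407177, plus strand (hg19).

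Glypican-4 had GPC4 signals of 252, 282 and 240 in T47D-VC1 and of 229, 278 and 252 in T47D-PA5. In T47D-PA6 they were 290 and 334 on replicates 2 and 3, and the spot of replicate 1 was left out because the image software marked it as an outlier, so the fit used 2 arrays there. Both lay above all arrays of the other lines, but the log2 difference over T47D-VC1 was 0.27, with an interval of -0.04 to 0.59 (limma adjusted p = 0.253). The probe covers chromosome X, 132435429 to 132435488, minus strand (hg19).

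Without any test, the arrays of T47D-PA6 and T47D-VC1 did not overlap for 4 of the 8 tested members (VCAN lower, HSPG2, AGRN and GPC4 higher), where this held for 30.9% of all tested genes (13.1% higher and 17.8% lower). For T47D-PA5 and T47D-VC1 it held for 3 of the 8 (HSPG2, AGRN and SDC1, all higher), where it held for 23.3% (11.2% higher). By the study's ratio rule, above 2 or under 0.6 between line means, VCAN was the 1 member called in T47D-PA6 over T47D-VC1, against 7.55% of all genes. For T47D-PA5 over T47D-VC1 the ratio rule called 0 members, against 3.98%.

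**Figure D3:**
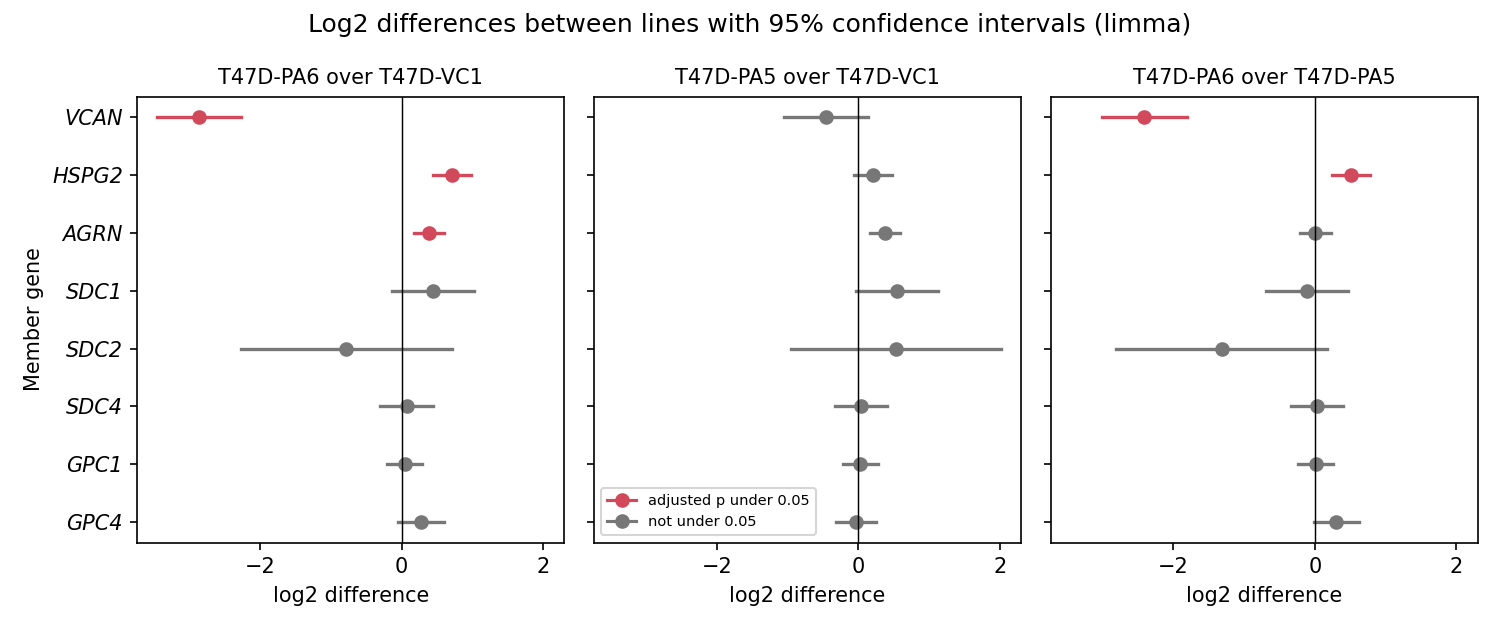
Log2 differences (horizontal axis) of the 8 tested members (vertical axis) in each of the 3 comparisons, with 95% confidence intervals from limma as bars. Points and bars in red have an adjusted p under 0.05 over all tested genes. VCAN lies at -2.86 and -2.41 in the comparisons of T47D-PA6 and at -0.45 in that of T47D-PA5 with T47D-VC1, and SDC2 has the widest intervals.

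The wider pathway was described with 9 lists, chosen like the members with earlier results of these data known. The lists hold 124 genes, of which 85 were tested. Of these, 12 passed in T47D-PA6 over T47D-VC1, with 9 higher and 3 lower, or 14.1% against 10.03% of all genes. In T47D-PA5 over T47D-VC1 3 passed (COL18A1, SPOCK1 and FBLN1, all higher), or 3.53% against 1.67%. In T47D-PA6 over T47D-PA5 9 passed, 5 higher and 4 lower, or 10.6% against 9.71%, and with the replicate number as a block 14 passed. Every one of the 9 arrays marked 78 of the 85 genes as well above background, and 11, 2 and 8 of these passed in the 3 comparisons, in the same order. The later scan run alone called far more genes (41 of the list genes, and 7469 of all genes), the slide as a block called 8 in T47D-PA5 over T47D-VC1, and no filter, the unpaired test and a fit of the 2 compared lines alone each called 5 in T47D-PA6 over T47D-VC1.

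Other core proteins of the family changed in both directions. In the list of other lecticans, small leucine-rich and surface proteoglycans, 11 of 22 genes were tested and 5 passed in T47D-PA6 over T47D-VC1, with 3 higher and 2 lower. That is 45.5% against 10.03% of all genes (4.69% higher and 5.34% lower). Of the 11, 7 had an unadjusted limma p under 0.05 (26.6% of all genes did), and 1 passed the unpaired test (2.15% did). Among the 9 genes of this list well above background on every array, 4 passed limma. TGFBR3, or betaglycan, a surface proteoglycan that presents TGF-β, had signals of 174, 73.7 and 79.7 in T47D-VC1. They were 71.1, 88.6 and 88.0 in T47D-PA5, and 249, 278 and 274 in T47D-PA6, so that T47D-PA6 lay above all other arrays. By log2 difference it rose 1.40 over T47D-VC1 (limma adjusted p = 0.0225), and the difference from T47D-PA5 was 1.70 (limma adjusted p = 0.0106). COL18A1, the basement membrane collagen that is itself a heparan sulfate proteoglycan, was higher in both PTH-AS lines. Its signals were 542, 610 and 635 in T47D-VC1, 1303, 1596 and 1595 in T47D-PA5, and 1354, 1185 and 1282 in T47D-PA6. The log2 difference was 1.10 in T47D-PA6 (limma adjusted p = 0.00169) and 1.33 in T47D-PA5 (limma adjusted p = 0.00233) over T47D-VC1. With the unpaired test the COL18A1 call in T47D-PA5 was lost (adjusted p = 0.0727).

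SPOCK1, or testican-1, a secreted proteoglycan named after its value was seen, was at least 2.25-fold higher in T47D-PA5 than in T47D-VC1 (limma adjusted p = 0.0406), whose 3 arrays did not reach the background mark. SPOCK1 was well above background on the 3 T47D-PA5 arrays and on 0 of T47D-PA6, so it passed the filter only through the line in which it was higher. That call was lost without T47D-VC1 replicate 1 or 3, any T47D-PA5 array or T47D-PA6 replicate 2 (adjusted p = 0.0781 to 0.153). SDC3, a further syndecan, had 0 of 3 arrays well above background in T47D-VC1 and 2 of 3 in T47D-PA6. SDC3 passed the filter only through T47D-PA5, where all 3 arrays were well above background at 23.5, 20.2 and 19.6. The T47D-PA6 signal was at least 1.54-fold higher than that of T47D-VC1 (limma adjusted p = 0.0369). The SDC3 signal of T47D-PA5 was at least 1.57-fold higher than that of T47D-VC1 (limma adjusted p = 0.0794). GPC6, a glypican, had signals of 2673, 1860 and 1891 in T47D-VC1 and 1440, 1324 and 1264 in T47D-PA6, with 2831, 2521 and 2447 in T47D-PA5. GPC6 was lower in T47D-PA6 than in both other lines, with a log2 difference from T47D-VC1 of -0.65 (limma adjusted p = 0.0327) and from T47D-PA5 of -0.95 (limma adjusted p = 0.00833). CSPG5, the remaining gene past the threshold in this list, had a log2 difference of -0.55 (limma adjusted p = 0.0445) and is named after its value was seen. That call was lost in 13 of the 22 settings, among them the replicate block (adjusted p = 0.0562), the slide as a block (0.0626) and leaving out T47D-VC1 replicate 2 or 3, T47D-PA5 replicate 3, or T47D-PA6 replicate 2 or 3 (adjusted p = 0.0703 to 0.145). The T47D-PA6 over T47D-VC1 calls were lost in 8 of 22 settings for TGFBR3 and GPC6 and in 13 of 21 for SDC3. With the slide as a block TGFBR3 had an adjusted p of 0.0505 and SDC3 one of 0.0588, and with normexp the SDC3 log2 difference was 0.18 (adjusted p = 0.138). No filter, the unpaired test and the compared lines alone lost all 3 calls, and so did leaving out some single arrays. For TGFBR3 these were T47D-VC1 replicate 2 or 3 and T47D-PA6 replicate 2 or 3 (adjusted p = 0.0700 to 0.0860), for GPC6 T47D-VC1 replicate 3 and replicates 2 or 3 of T47D-PA5 and T47D-PA6 (0.0574 to 0.115), and for SDC3 any T47D-VC1 array and replicates 2 or 3 of T47D-PA5 and T47D-PA6 (0.0588 to 0.113).

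Among the 37 tested genes of the 4 lists of enzymes that build the sugar chains, 2 passed in T47D-PA6 over T47D-VC1, or 5.41% against 10.03% of all genes. Of 7 tested genes for the linker sugars and their nucleotide supply 0 passed limma after adjustment, 3 had an unadjusted p under 0.05 (26.6% of all genes did), and 1 passed the unpaired test (2.15% of all genes did). For sulfate donor supply these counts were 0, 1 and 0 of 5. Of 12 tested genes for heparan sulfate chains 1 passed, EXTL1, at a log2 difference of 0.98 (limma adjusted p = 0.0315). Of 13 tested genes for chondroitin and dermatan sulfate chains 1 passed, CHPF, a factor needed for chondroitin chain growth. CHPF signals were 4551, 4431 and 4024 in T47D-VC1, 5285, 4977 and 5161 in T47D-PA5, and 7530, 7997 and 7377 in T47D-PA6, without overlap between any lines. Its log2 difference was 0.82 over T47D-VC1 (limma adjusted p = 0.00185), and that over T47D-PA5 was 0.57 (limma adjusted p = 0.0084). The CHPF calls against both other lines held in all 22 settings. EXTL1 lost its call in 11 of the 22 settings, among them the replicate block (adjusted p = 0.0510), the slide as a block (0.0705), no filter (0.0867), and leaving out replicate 2 or 3 of any line (0.0545 to 0.114).

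Between the PTH-AS lines 4 of the same 37 genes passed, or 10.8% against 9.71% of all genes, 2 of them higher in T47D-PA6. CHPF was among the 4, and the other 3 are named after their values were seen. The count takes in CHSY3, which passed the filter only through T47D-PA5, where it was higher. Among genes well above background on all 9 arrays, 2 of 7 linker and 0 of 12 heparan sulfate chain genes passed. So did 1 of 11 chondroitin and dermatan sulfate chain genes and 0 of 5 for sulfate donor supply. FAM20B, the kinase that phosphorylates the first linker sugar, had signals of 3595, 4861 and 4525 in T47D-VC1. They were 5584, 6799 and 6498 in T47D-PA5, and 3324, 2833 and 3031 in T47D-PA6, below all other arrays. The FAM20B log2 difference between T47D-PA6 and T47D-PA5 was -1.04 (limma adjusted p = 0.00510). UGDH, which makes the sugar nucleotide for glucuronic acid, had a log2 difference of 0.40 (limma adjusted p = 0.0315), lost with the slide as a block (adjusted p = 0.0535), the unpaired test (0.0726), the compared lines alone (0.0599) and when replicate 2 or 3 of any line was left out (0.0531 to 0.124). CHSY3, a chondroitin synthase, was well above background on 1 T47D-VC1 array, 3 T47D-PA5 arrays and 0 T47D-PA6 arrays, and so passed the filter only through T47D-PA5. CHSY3 was at least 3.16-fold lower in T47D-PA6 than in T47D-PA5 (limma adjusted p = 0.0223), lost with no filter (adjusted p = 0.0787) and without any single T47D-PA5 array or T47D-PA6 replicate 2 or 3 (0.0515 to 0.0860).

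**Figure D4:**
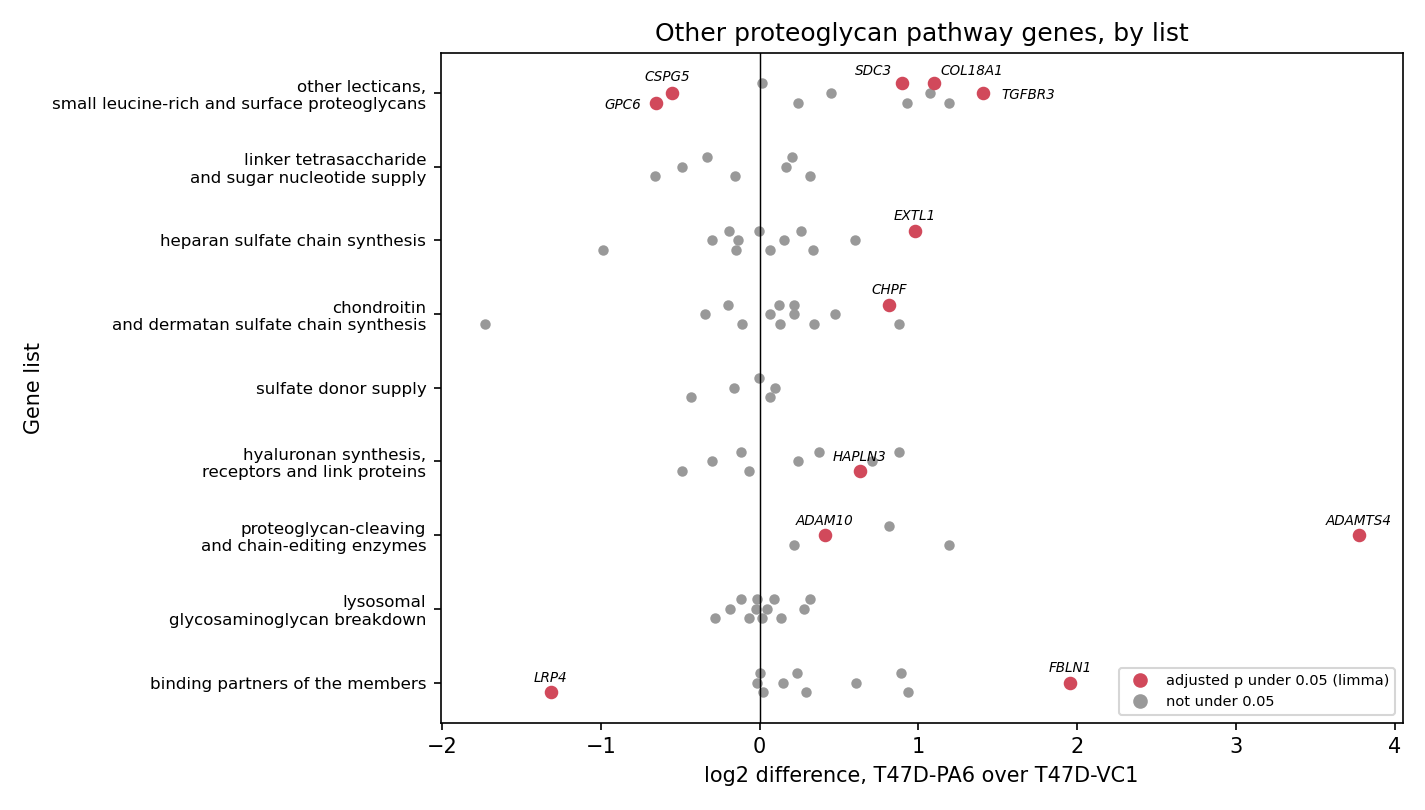
Log2 differences in T47D-PA6 over T47D-VC1 (horizontal axis) of the 85 tested genes of the 9 pathway lists (vertical axis, 1 row a list, points set apart vertically for legibility only). Red points with names have a limma adjusted p under 0.05. Of the 12 named genes 9 lie to the right of 0, with ADAMTS4 farthest at 3.77, and GPC6, CSPG5 and LRP4 lie to the left.

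In the list of proteoglycan-cleaving and chain-editing enzymes, 5 of 12 genes were tested and 2 passed in T47D-PA6 over T47D-VC1, both higher. Of all genes 10.03% passed there, 4.69% higher. ADAMTS4, a secreted protease that cleaves aggrecan and versican, had signals of 111, 159 and 160 in T47D-VC1. They were 501, 739 and 713 in T47D-PA5, and 795, 2945 and 3076 in T47D-PA6. The 3 lines did not overlap, and replicate 1 of T47D-PA6 was well below its other arrays. The ADAMTS4 log2 difference was 3.77 over T47D-VC1 (SE 0.48, limma adjusted p = 0.00304), 13.7-fold, and was lost only by the unpaired test (adjusted p = 0.0841) among the 22 settings. For T47D-PA5 the ADAMTS4 log2 difference from T47D-VC1 was 2.18 (limma adjusted p = 0.0668), and between the PTH-AS lines it was 1.59 (limma adjusted p = 0.0764). With the slide as a block both of these ADAMTS4 differences passed (adjusted p = 0.0193 and 0.0362), as they did without T47D-PA6 replicate 1 (0.00262 and 0.00143). With the replicate block the difference between the PTH-AS lines passed at adjusted p = 0.0246. ADAM10, a membrane protease that sheds syndecans, had a log2 difference of 0.41 over T47D-VC1 (limma adjusted p = 0.0177). That call was lost with the compared lines alone (adjusted p = 0.0585) and without T47D-VC1 replicate 2 or 3 or T47D-PA6 replicate 2 or 3 (0.0614 to 0.0754). SULF1, which trims sulfate from heparan sulfate, had signals of 1813, 2893 and 2853 in T47D-VC1. They were 646, 1269 and 1292 in T47D-PA5, and 3517, 4934 and 4668 in T47D-PA6. SULF1 passed between the PTH-AS lines at a log2 difference of 2.09 (limma adjusted p = 0.00608), but not by the unpaired test (adjusted p = 0.0697). It is named after its value was seen.

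In the list of hyaluronan synthesis, receptors and link proteins, 1 of 9 tested genes passed in T47D-PA6 over T47D-VC1, or 11.1% against 10.03% of all genes. It was HAPLN3, a link protein that ties versican to hyaluronan, at a log2 difference of 0.63 (limma adjusted p = 0.0473), which was lost in 17 of the 22 settings, among them the replicate block (adjusted p = 0.0589) and leaving out any array but T47D-PA6 replicate 1 (adjusted p = 0.0542 to 0.157). Among binding partners of the members, 2 of 11 tested genes passed, 1 in each direction, or 18.2% against 10.03% of all genes. FBLN1, or fibulin-1, a matrix protein that binds versican, had signals of 46.9, 75.5 and 60.5 in T47D-VC1. They were 164, 189 and 173 in T47D-PA5, and 291, 198 and 217 in T47D-PA6, so that both PTH-AS lines lay above T47D-VC1 without overlap. The FBLN1 log2 difference was 1.95 in T47D-PA6 (limma adjusted p = 0.0012) and 1.55 in T47D-PA5 (limma adjusted p = 0.00907) over T47D-VC1. With the unpaired test both FBLN1 calls were lost (adjusted p = 0.0586 and 0.106). LRP4, the receptor of agrin, had signals of 197, 200 and 185 in T47D-VC1, 71.9, 144 and 157 in T47D-PA5, and 68.0, 77.8 and 89.3 in T47D-PA6. The LRP4 log2 difference in T47D-PA6 over T47D-VC1 was -1.32 (limma adjusted p = 0.0210). That call was lost with no filter (adjusted p = 0.0658) and without T47D-VC1 replicate 2 or 3 or T47D-PA6 replicate 2 or 3 (0.0558 to 0.0700). Of 12 lysosomal genes that break the chains down, all tested, 0 passed limma after adjustment in any comparison. Of all genes 10.03%, 1.67% and 9.71% passed in T47D-PA6 over T47D-VC1, T47D-PA5 over T47D-VC1 and T47D-PA6 over T47D-PA5. The unadjusted counts of these 12 were 1 in T47D-PA6 over T47D-VC1, 0 in T47D-PA5 over T47D-VC1 and 1 between the PTH-AS lines. Of all genes 26.6%, 15.6% and 24.9% had such a p, in the same order. The unpaired test called 0 of the 12 in each comparison, where it called 2.15%, 0.194% and 3.93% of all genes.

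The 5 genes whose log2 signals followed VCAN most closely over the 9 arrays, of 18234 genes well above background on all of them, were REEP5 (Pearson's r = 0.990), TOR1B (0.988), lnc-PMM2-6 (0.987), SLC25A4 (0.983) and MYO5C (0.981). The arrays share lines and scan runs, so this is a description of likeness with no test. REEP5, which shapes the endoplasmic reticulum, had a log2 difference of -0.76 in T47D-PA6 over T47D-VC1, a much smaller change than that of VCAN. The other genes had log2 differences of -0.33 (TOR1B) to -0.75 (MYO5C) in that comparison.

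Marker genes were read against the labelled cell type. All 9 luminal markers (KRT8, KRT18, KRT19, EPCAM, CDH1, GATA3, FOXA1, ESR1 and PGR) cleared background on each of the 9 arrays, and PGR alone among them passed in T47D-PA6 over T47D-VC1, with a log2 difference of -1.07 (limma adjusted p = 0.00724). Of 8 fibroblast and mesenchymal markers, 3 cleared background on each array, and COL1A2, COL3A1, PDGFRA and FAP were never so. Their summed signal ranged from 889 to 1273 in T47D-VC1, from 1440 to 1728 in T47D-PA5 and from 1340 to 1762 in T47D-PA6. The 3 tested genes went in different directions. In T47D-PA6 over T47D-VC1 the log2 difference of ACTA2 was 1.05 (limma adjusted p = 0.0538, and 0.0200 with the replicate block), that of THY1 was -0.73 (adjusted p = 0.368) and that of COL1A1 was -0.50 (adjusted p = 0.0198). The COL1A1 call was lost without T47D-VC1 replicate 3 (adjusted p = 0.0798) or T47D-PA6 replicate 2 (adjusted p = 0.0823), with the unpaired test (0.0680) and with the compared lines alone (0.0524). The sum is led by ACTA2, which had signals of 372 to 830 in T47D-VC1 and of 960 to 1424 in T47D-PA6. Among the 6 endothelial and leukocyte markers on the array, PECAM1, KDR and CD3E were never well above background, and summed signals were 97.4 to 126, 184 to 192 and 157 to 265 in the same order of lines. CD14 rose by a log2 difference of 1.80 in T47D-PA6 over T47D-VC1 (limma adjusted p = 0.00821), while the other 2 tested genes of that list had log2 differences of -0.44 (CDH5, adjusted p = 0.303) and -0.17 (PTPRC, adjusted p = 0.733). The CD14 call was lost with the unpaired test (adjusted p = 0.109). What part other cell types had in the member values was not tested. Between 44.0% and 48.0% of probes were well above background on each array, 0 spots were saturated, and arrays of a line differed by a median of 0.09 to 0.11 (log2) within the later scan run and by 0.21 to 0.27 between runs.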

How the data were processed

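The authors labeled total RNA of the 9 samples with a single dye, hybridized it to SurePrint human expression arrays, and deposited each array's spot intensities, background-subtracted by Feature Extraction (version 10.7.1.1 in the file headers, 9.5.1.1 in the labels), and a quantile-normalized intensity table. From the deposited intensity of each spot, control spots and 46 to 117 outlier spots per array were left out here. Log2 values of a probe's spots were averaged, and the arrays were then quantile-normalized against each other, as in the study's methods. A probe was tested when all 3 arrays of any line marked it as well above background (26171 probes, 20106 genes, each read from its brightest tested probe). Symbols were updated with a RefSeq table, which matched 34966 of 58201 probes. The lines were compared in 1 limma 3.58.1 fit (R 4.3.3) over 9 arrays with 6 residual degrees of freedom (5 for GPC4), and p-values were adjusted by Benjamini-Hochberg over all genes (threshold 0.05). Arrays with the same replicate number deviated together from their line means between T47D-PA6 and T47D-VC1 (correlations of 0.34, 0.13 and 0.24) and between T47D-PA6 and T47D-PA5 (0.27, 0.17 and 0.17), so values with the replicate block are given where they change a call of T47D-PA6. The pairing comes from these data alone, and in only 9 of 18 array and other-line pairs did the array correlate best with its own number. Replicate 1 of each line was also the only one in the earlier scan run. Deviations shared by number and by scan run were not told apart, so the replicate block may reflect the run. Simulated data with known changes were used to check the fit. The precision is limited by the number of arrays, 3 a line.

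Genes named are the 10 members, at most 4 genes past the threshold in T47D-PA6 over T47D-VC1 from each list, by size, and the 5 most like VCAN. The members and lists were chosen with earlier results of these data known. CSPG5, SPOCK1, SULF1, FAM20B, UGDH and CHSY3 are outside this rule and were chosen after their values were seen. Where all arrays of a line missed the background mark, the fold is a lower bound, with each dim array set to its lowest marked signal if its own was under that, and means taken on the log2 scale. Sequences are from the array files and RefSeq (GRCh38.p14). Alternatives were other normalizations, filters, blocks, tests and each array left out, and, added after seeing the data, the later scan run alone and outlier spots kept.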

Additional observations from a re-analysis of the deposited data

How the results depend on the processing

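The 22 settings with a test were a 75th percentile shift, normexp, the authors' table, no filter, a stricter filter, slide and replicate blocks, 9 fits without 1 array, an intensity trend, the unpaired test, the compared lines alone, the mean of a gene's probes, and, chosen after seeing the data, the later scan run alone and outlier spots kept. The cause was not tested for any change below, unless fewer arrays or more tested genes made it.

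Members called in T47D-PA6 over T47D-VC1 (3) became 1 with the unpaired test and 1 with the ratio rule, and 2 to 3 with an array left out. In T47D-PA5 over T47D-VC1 (0) they became 1 with the intensity trend and 1 in the later run, and 0 to 1 with an array left out. In T47D-PA6 over T47D-PA5 (2) they became 1 with the 75th percentile shift, no filter, the slide block, the unpaired test and the compared lines alone, and 1 to 2 with an array left out.

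Genes of the lists in T47D-PA6 over T47D-VC1 (12) became 5 with no filter, the unpaired test or the compared lines alone, 41 in the later run and 4 to 18 with an array left out. In T47D-PA5 over T47D-VC1 (3) they became 5 with the 75th percentile shift, 8 with the slide block, 6 with the trend, 0 with the unpaired test, 31 in the later run and 2 to 7 with an array left out. In T47D-PA6 over T47D-PA5 (9) they became 33 in the later run and 6 to 14 with an array left out.

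With the replicate block the members called numbered 3, 0 and 2, as without it, and the list genes became 18 in T47D-PA6 over T47D-VC1, 7 in T47D-PA5 over T47D-VC1 and 14 in T47D-PA6 over T47D-PA5. In T47D-PA5 over T47D-VC1, where the numbers are not taken to pair the arrays (deviations correlated at 0.21, 0.099 and 0.12), ADAMTS4 passed with the block (adjusted p = 0.0232). In T47D-PA6 over T47D-VC1 SULF1 passed with it (log2 difference 0.81, adjusted p = 0.0141). Beside these and the genes for which the report gives a value with the block, PGR in T47D-PA6 over T47D-PA5 lost its call (adjusted p = 0.0612), and SULF1 in T47D-PA5 over T47D-VC1 gained one (0.00853).

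All genes called in T47D-PA6 over T47D-VC1 (2017), T47D-PA5 over T47D-VC1 (335) and T47D-PA6 over T47D-PA5 (1952) became 1285, 198 and 1262 with no filter, 432, 39 and 790 with the unpaired test, 7469, 4309 and 7142 in the later run, 608 for the second with the slide block and 1146 for the first with the compared lines alone. With an array left out they were 703 to 2768, 99 to 621 and 726 to 2950.

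Some log2 differences that had not passed the test changed sign. In T47D-PA6 over T47D-VC1, GPC1 became -0.0041 with the 75th percentile shift and ranged from -0.017 to 0.15 with an array left out, SDC4 ranged from -0.085 to 0.19 and SDC2 from -1.30 to 0.024, SDC2 was 0.37 in the later run, and PTPRC became 0.00026 with the shift. In T47D-PA5 over T47D-VC1, with an array left out SDC4 ranged from -0.039 to 0.16, GPC1 from -0.029 to 0.13, GPC4 from -0.10 to 0.040 and TGFBR3 from -0.52 to 0.10, and in the later run GPC4 became 0.025 and TGFBR3 0.20. In T47D-PA6 over T47D-PA5, SDC4 became -0.011 and GPC1 -0.034 with the 75th percentile shift, GPC1 -0.0079 with normexp, and in the later run AGRN became -0.070 and SDC4 -0.16. With an array left out AGRN ranged from -0.058 to 0.049, SDC4 from -0.12 to 0.11 and GPC1 from -0.0061 to 0.037. SDC3 in that comparison became 0.11 with the shift, 0.0017 with normexp, 0.24 with the mean of its probes and 0.26 in the later run, and ranged from -0.23 to 0.18. Signal over background limits SDC2, SDC3, ACAN, BGN and the 3 inner HSPG2 probes. The lowest signal well above background ranged from 9.59 to 15.2 over the 9 arrays. Signals of ACAN, BGN and the 3 inner HSPG2 probes lie below, in or just above that range. SDC2 and SDC3 lie below it on some arrays and above it on others, up to 31.2 for SDC2 (T47D-PA5 replicate 1) and 27.2 for SDC3 (T47D-PA6 replicate 2).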
